A study of Mus musculus with 15 samples.

Results

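The 9 kallikrein-related peptidase genes Klk5, Klk6, Klk7, Klk8, Klk9, Klk10, Klk11, Klk13 and Klk14 and the inhibitor gene Spink5 were followed across sites of ultraviolet-irradiated mouse skin. They were taken by gene symbol, and all 10 were found among the 24027 symbols that the deposited tables share. RNA-seq was carried out on 15 skin libraries from female mice of the hairless strain SKH1. Ultraviolet B began at an age of 6 to 8 weeks, at a dose of 500 J/m2 given 5 days a week over 10 weeks. It raises actinic keratoses, which are precursors of squamous cell carcinoma. Placebo mice, given 0.25 g of a cream without drug on the skin 5 days per week, supplied 4 of the 5 groups with 3 libraries each: lesions, the perilesional skin around them, irradiated non-lesional skin and skin that was not exposed (non-UV). Mice given 0.25 g of GZ21T cream on the same schedule supplied lesional skin, also with 3 libraries. Back skin is the headers' name for the unexposed group, so exposure and any difference of body site cannot be told apart in comparisons with it.

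Kallikreins are secreted serine proteases that granular keratinocytes deliver, as inactive precursors, into the space between the cells of the outermost epidermis. There the trypsin-like KLK5 and KLK14 and the chymotrypsin-like KLK7 cut the corneodesmosomes, the junctions built from desmoglein 1, desmocollin 1 and corneodesmosin, and so let surface cells shed. LEKTI, the product of Spink5, holds these proteases in check. Its loss causes Netherton syndrome in humans, with premature shedding and a leaky barrier. KLK5 also cleaves the receptor PAR2, encoded by F2rl1, upstream of the cytokine TSLP.

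The 9 kallikrein genes lie head to tail on the plus strand of chromosome 7 within 161 kb of GRCm38, and Spink5 lies on another chromosome. Klk14 (43690418 to 43695536) opens the cluster and Klk5 (43841971 to 43851181) closes it. Klk13 occupies 43712567 to 43727534, Klk10 43781035 to 43785410 and Klk6 43824499 to 43832030 on chromosome 7. The other coding gene inside the interval is Klk12. A non-coding transcript of the opposite strand, 2310002F09Rik, overlaps 6 of the members, of which Klk14 and Klk8 only in part. It shares exon bases with 2 of them, 287 bases with Klk14 and 382 with Klk8. The library kit keeps strand, but whether strand was used in counting is not given in the sources used here, so values of Klk14 and Klk8 may include reads of 2310002F09Rik. That transcript itself stood at -0.53 ± 0.53 (SE) on the log2 scale in non-lesional over non-UV skin and at -0.30 ± 0.52 in lesional over non-UV skin in the authors' deposited table, with adjusted p of 0.87 and 0.73.

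Start regions of 4 members are shown because their genes changed in different comparisons: Klk13 had the largest called fold change after Klk14, Klk10 was called in lesions and not in non-lesional skin, Klk6 was called in both, and Klk5 was the member called under GZ21T. Each runs from 250 bases before to 50 bases after the start that RefSeq gives on GRCm38.p6, plus strand. Capitals mark the first transcribed base by RefSeq and, in Klk13, a match to a KLF motif. The gene spans given above come from GENCODE. By those spans the whole Klk5 window lies inside the gene, and the RefSeq starts of Klk10 and Klk6 also lie inside theirs. The windows are chr7:43712317-43712616 for Klk13, chr7:43780804-43781103 for Klk10, chr7:43824294-43824593 for the upstream start of Klk6, and chr7:43842019-43842318 for Klk5.
Klk13: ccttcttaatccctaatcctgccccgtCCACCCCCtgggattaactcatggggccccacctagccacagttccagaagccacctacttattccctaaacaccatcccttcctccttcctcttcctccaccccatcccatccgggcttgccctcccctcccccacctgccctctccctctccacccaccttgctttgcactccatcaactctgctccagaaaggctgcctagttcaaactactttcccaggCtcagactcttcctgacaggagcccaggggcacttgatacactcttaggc
Klk10: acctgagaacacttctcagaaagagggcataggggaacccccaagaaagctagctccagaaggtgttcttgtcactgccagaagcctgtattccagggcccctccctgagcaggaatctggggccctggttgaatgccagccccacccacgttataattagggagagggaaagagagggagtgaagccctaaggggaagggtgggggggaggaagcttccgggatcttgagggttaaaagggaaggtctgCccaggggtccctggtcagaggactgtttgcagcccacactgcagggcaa
Klk6: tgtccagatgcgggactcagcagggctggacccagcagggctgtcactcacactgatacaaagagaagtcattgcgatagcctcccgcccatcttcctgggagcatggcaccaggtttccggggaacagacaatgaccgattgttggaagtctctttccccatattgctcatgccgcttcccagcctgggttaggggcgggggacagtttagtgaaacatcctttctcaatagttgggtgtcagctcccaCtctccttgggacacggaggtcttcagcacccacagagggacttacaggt
Klk5: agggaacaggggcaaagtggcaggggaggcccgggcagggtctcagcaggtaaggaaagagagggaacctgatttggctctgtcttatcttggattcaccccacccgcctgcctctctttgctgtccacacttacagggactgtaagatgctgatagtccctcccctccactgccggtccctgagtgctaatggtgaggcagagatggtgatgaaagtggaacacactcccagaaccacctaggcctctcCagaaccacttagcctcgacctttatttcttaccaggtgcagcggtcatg
Motifs were looked for on both strands in the 11 start regions that RefSeq gives for the 9 kallikreins. The AP-1 motif TGANTCA was in 0 of the 11 and in 7.81% of 32851 mouse start regions of the same length. The grainyhead-like motif AACNGGTT was in 0 of the 11 and in 2.09% of all. The KLF motif GGGNGTGG was in 1 of the 11, that of Klk13, on the opposite strand, with its first base at -223 from the start, and in 17.6% of all. These motifs do not overlap one another in the windows shown. No match says only that these letters are absent from the window.

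Values are log2 fold changes with their standard error (SE), which was computed as the fold change over the authors' Wald statistic. A gene was called higher or lower at an adjusted p under 0.05 over all genes tested. Shares over all genes are given for such calls only. Counts at an unadjusted p under 0.05 have no such share beside them and cannot be set against the share called. The tables hold no values per library, so depth is unknown, levels cannot be compared between genes, and the libraries behind a change cannot be shown singly. Nothing in the labels says outright that the 3 libraries of a group are separate animals, so the spread behind each p-value may be partly technical. The placebo libraries carry the same numbers at every site, so the sites may come from the same mice. Derived SEs and limits on SEs treat the groups as independent and take no account of such pairing. Whether the authors' model did so is not given in the sources. In bulk skin, fewer cells of a type and less RNA per cell cannot be told apart. Keratinocyte markers were measured throughout, with 7 of 7 basal and 13 of the 13 granular and cornified genes found in the tables tested in every comparison.

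Irradiated skin without lesions was set against unexposed skin, where exposure and any difference of body site cannot be told apart. Klk6, Klk7, Klk9 and Klk13 were called higher in the irradiated skin, and no member was called lower. These are 4 of the 9 members tested, where 1.66% of 14124 genes were called and 1.13% were called higher. The members and gene lists were chosen with earlier results of these data known. Counts set beside such shares, here and below, are therefore descriptive and carry no test. The 9 kallikreins had a median log2 fold change of 1.17, all 9 above 0, against a median of -0.02 over all genes tested. Spink5 stood at 0.39 ± 0.28 in the authors' deposited table (adjusted p = 0.76), with a 95% interval from -0.16 to 0.94.

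Klk6, a trypsin-like protease also known as neurosin, was 6.02-fold higher in non-lesional skin, a log2 fold change of 2.59 ± 0.38 in the authors' deposited table (adjusted p = 1.6e-08). For Klk13, another trypsin-like member, the authors' deposited table gives 2.52 ± 0.68 (adjusted p = 0.021). Klk9 rose by 1.67 ± 0.39 there (authors' deposited table, adjusted p = 0.003). Klk7, which cuts corneodesmosin and desmocollin 1, rose by 1.17 ± 0.31 in the authors' deposited table (adjusted p = 0.016), a 2.24-fold difference. When the spread of the null was estimated from all genes, Klk7 and Klk13 were not called. Over all alternatives run their adjusted p lay between 0.014 and 0.054 for Klk7 and between 0.018 and 0.065 for Klk13. Klk6 and Klk9 were called under every alternative run.

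Klk5, which starts the shedding cascade by activating itself, KLK7 and KLK14, stood at 1.10 ± 0.35 in the authors' deposited table without passing the threshold (adjusted p = 0.074). Klk8, known as neuropsin, stood at 0.80 ± 0.31 in the authors' deposited table (adjusted p = 0.23). Klk10 stood at 0.65 ± 0.47 (adjusted p = 0.76) and Klk11 at 0.06 ± 0.35 in the authors' deposited table (adjusted p = 0.99). Klk14 has the widest error, 3.54 ± 1.71 in the authors' deposited table, and has no adjusted p there. The 95% intervals run from 0.42 to 1.78 for Klk5 and from 0.20 to 1.41 for Klk8, which both hold the value of the called Klk7.

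**Figure D1:**
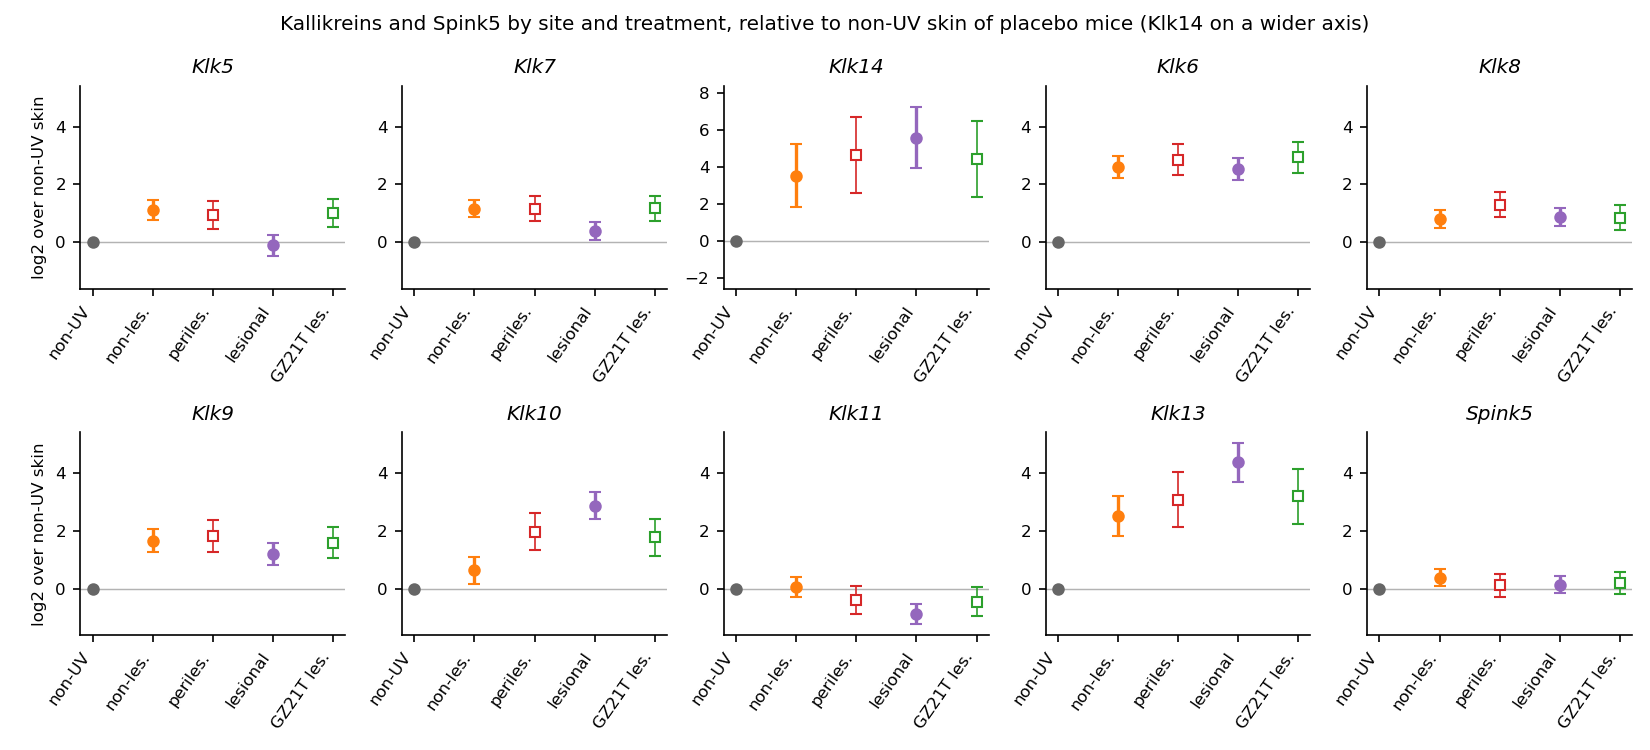
Log2 fold change of each member over non-UV skin (y axis) at the 5 sites (x axis); filled circles are deposited values with SE, open squares are sums of deposited values with the largest SE the tables allow. Klk13 and Klk10 have their highest values in placebo lesions at 4.37 and 2.88, Klk5 has its lowest value there at -0.11, and Spink5 stays between 0 and 0.39.

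Between perilesional and non-lesional skin, both irradiated, no member passed the test. Perilesional over non-lesional skin gave 0 of 10 members called by the authors' DESeq2 Wald test, where 0.112% of 15201 genes were called (0.0921% higher and 0.0197% lower), and 1 member had an unadjusted p under 0.05. That member was Klk10, at 1.32 ± 0.45 in the authors' deposited table (adjusted p = 0.33). Klk7 stood at 0.00 ± 0.31 in the authors' deposited table, with a 95% interval from -0.60 to 0.60, and Klk6 at 0.26 ± 0.38. Spink5 stood at -0.27 ± 0.28 in the authors' deposited table. Hair follicle genes lay below non-lesional skin, with a median of -4.29, 12 of 12 below 0, 11 at an unadjusted p under 0.05 and Tchh, the gene of trichohyalin, called. Sebaceous gland genes had a median of 2.31, with 9 of 9 above 0 and Elovl3 and Fa2h called higher. Their part in the values of Klk10 and the other members was not tested. This comparison shares the non-lesional libraries with the one before it, which enter with opposite sign.

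Summed over both steps, perilesional skin lay above unexposed skin for 8 of the 9 kallikreins. Klk14 reached 4.64, Klk13 3.08, Klk6 2.84, Klk10 1.97 and Klk9 1.82 on the log2 scale. Klk8 reached 1.30, its highest value of any site, Klk7 1.17 and Klk5 0.95. Klk11 stood at -0.38 and Spink5 at 0.11. These sums carry no test, since their exact SE cannot be had from the tables, and at most it is 2.05 for Klk14, 0.95 for Klk13 and 0.54 for Klk6.

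Placebo lesions were then set against unexposed skin. Of 10 members tested, 6 were called higher and none lower: Klk6, Klk8, Klk9, Klk10, Klk13 and Klk14. Across all 15201 genes 18.3% were called, 10.2% higher and 8.17% lower. When fold changes were centred on their median of 0.08, the split over all genes turned from 1543 higher and 1242 lower to 1244 higher and 1607 lower, while the 6 members stayed called. The kallikreins had a median of 1.20 and ranged from -0.86 to 5.59. Both signs occur among them, with 7 kallikreins above 0 and 2 below.

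Klk13 was 20.7-fold higher in lesions than in unexposed skin, at 4.37 ± 0.68 on the log2 scale in the authors' deposited table (adjusted p = 5.9e-08). Klk10 rose by 2.88 ± 0.46 in the authors' deposited table (adjusted p = 1.5e-07), 7.35-fold. Klk6 rose by 2.52 ± 0.38 in the authors' deposited table (adjusted p = 1.8e-08), close to its value of 2.59 in non-lesional skin. Lesional over non-lesional skin, by difference of these values, gave -0.07 for Klk6, while it gave 2.23 for Klk10 and 1.85 for Klk13 on the log2 scale. The SE of these differences cannot be had exactly and is at most 0.53 for Klk6, 0.64 for Klk10 and 0.93 for Klk13, so no test was made.

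Smaller rises were called for Klk9, at 1.20 ± 0.39 in the authors' deposited table (adjusted p = 0.017), and for Klk8, at 0.89 ± 0.31 (adjusted p = 0.028). Klk14, which with KLK5 activates PAR2 and cuts desmoglein 1, rose by 5.59 ± 1.66 in the authors' deposited table (adjusted p = 0.0088). The error of Klk14 is the largest of any member, and its 95% interval runs from 2.33 to 8.84. A null spread estimated from all genes was 1.92 times that of the normal in this comparison. Since 18.3% of all genes were called here, that spread cannot tell a wide null from many real differences. With it none of the 6 was called. Over all alternatives their adjusted p reached 0.27 for Klk6, 0.35 for Klk13, 0.39 for Klk10, 0.93 for Klk9 and Klk14 and 0.94 for Klk8, from lowest values of 1.3e-08, 4.2e-08, 1.1e-07, 0.013, 0.0088 and 0.023 in the same order.

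Klk5 and Klk7, core proteases of shedding, were not called in lesions over unexposed skin. Klk5 stood at -0.11 ± 0.35 (adjusted p = 0.86) and Klk7 at 0.40 ± 0.31 in the authors' deposited table (adjusted p = 0.39). Their 95% intervals run from -0.79 to 0.57 for Klk5 and from -0.21 to 1.00 for Klk7. Klk11 had the lowest value, -0.86 ± 0.35 in the authors' deposited table (adjusted p = 0.068), and was called lower when fold changes were centred (adjusted p = 0.042, over all alternatives from 0.042 to 0.96). Spink5, which lies on chromosome 18 (43963235 to 44022501, plus strand), stood at 0.15 ± 0.28 in the authors' deposited table (adjusted p = 0.76), with an interval from -0.40 to 0.69. Relative to Spink5, 7 of 9 kallikreins had the higher log2 fold change in lesions over unexposed skin, with a median difference of 1.05. In non-lesional over unexposed skin 8 of 9 did, with a median difference of 0.78. In lesional over perilesional skin 3 of 9 did, with a median difference of -0.44. These differences carry no test.

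**Figure D2:**
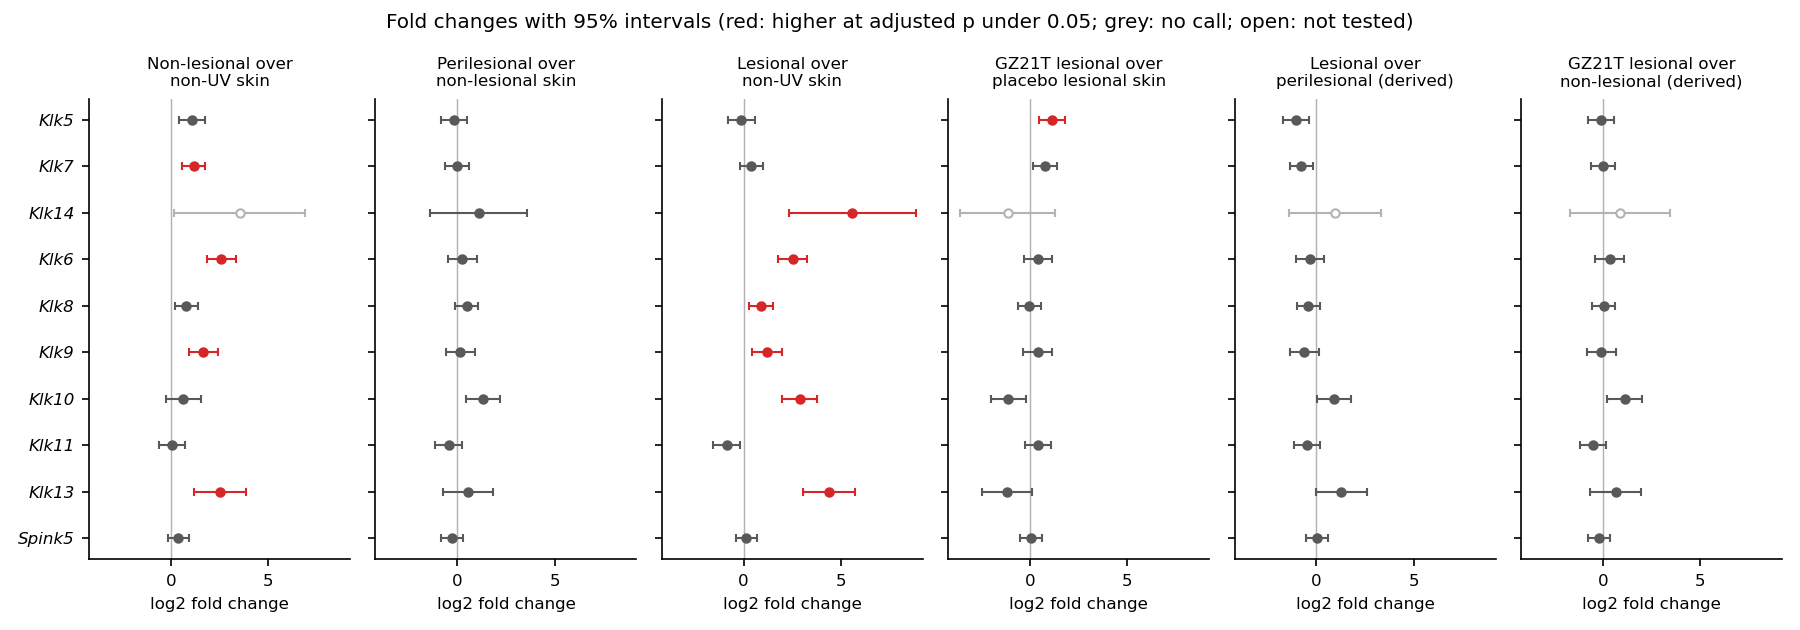
Log2 fold change (x axis) of each member with its 95% interval in 6 comparisons; red marks an adjusted p under 0.05, grey no call and open points genes not tested. Calls number 4 in non-lesional and 6 in lesional over non-UV skin and 1 under GZ21T, all to the right of 0.

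Lesions were compared with the skin around them by a contrast derived from 3 deposited tables. By normal tails of the derived statistic 0 of 9 tested members were called, where 0.68% of 14121 genes were called. At an unadjusted p under 0.05 there were 3 members, a count that cannot be set against that share. Klk5 had the lowest value, -1.06 ± 0.34 (adjusted p = 0.13), followed by Klk7 at -0.77 ± 0.31 (adjusted p = 0.28). On the other side were Klk13 at 1.29 ± 0.66 (adjusted p = 0.45) and Klk10 at 0.90 ± 0.45 (adjusted p = 0.43). Klk6 stood at -0.32 ± 0.37, Klk8 at -0.41 ± 0.30, Klk9 at -0.63 ± 0.38, Klk11 at -0.48 ± 0.35 and Klk14 at 0.94 ± 1.21. Spink5 was at 0.03 ± 0.28 (adjusted p = 0.99). Set against non-lesional skin instead, lesional Klk5 stood at -1.21 and Klk7 at -0.77, with an SE of at most 0.48 and 0.44. The values of Klk5 and Klk7 lay below 0 while those of Klk10, Klk13 and Klk14 lay above it. In the same contrast granular and cornified layer genes had a median of -0.96, with 11 of 13 below 0, 8 at an unadjusted p under 0.05, Lce1a1 and Lce1c called lower and Tgm3 called higher. Stress keratinocyte genes had a median of 1.17, with 7 of 7 above 0 and 3 at an unadjusted p under 0.05 but 0 called by normal tails of the derived contrast. The 12 hair follicle genes had a median of 3.49, all above 0, with 9 at an unadjusted p under 0.05 and 0 called. The part of these markers in the kallikrein values was not tested.

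GZ21T-treated lesions were set against placebo lesions to ask what the cream changes. Of 9 members tested 1 was called, Klk5, and it was higher, where 3.61% of 10899 genes were called, 1.31% higher and 2.29% lower. The split over all genes was 143 higher and 250 lower, and 201 higher and 142 lower when centred on the median of -0.06. The authors' deposited table, turned in sign to read GZ21T over placebo, gives Klk5 a log2 fold change of 1.14 ± 0.34 (adjusted p = 0.041), a 2.20-fold rise. The call on Klk5 ended when all genes with a p-value entered the adjustment (adjusted p = 0.065) and with the null spread estimated from all genes, and over all alternatives its adjusted p lay between 0.03 and 0.98.

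Klk7 stood at 0.78 ± 0.31 under GZ21T in the authors' deposited table (adjusted p = 0.11). The members highest in placebo lesions had values below 0, with Klk13 at -1.18 ± 0.66 (adjusted p = 0.27) and Klk10 at -1.10 ± 0.45 in the authors' deposited table (adjusted p = 0.12). Klk14, not tested there, stood at -1.15 ± 1.24 in the authors' deposited table. Klk11 stood at 0.41 ± 0.35, Klk6 at 0.42 ± 0.38, Klk9 at 0.40 ± 0.38 and Klk8 at -0.04 ± 0.31 in the authors' deposited table, none called. Spink5 was at 0.06 ± 0.28 in the authors' deposited table (adjusted p = 0.94), with an interval from -0.49 to 0.60. The placebo lesions enter this comparison and the one with unexposed skin with opposite sign.

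Against placebo non-lesional skin, which does not share the placebo lesions, GZ21T lesions gave no called member. By normal tails of the derived contrast 0 of 9 members were called, as were 0.0% of 10899 genes, and 1 member had an unadjusted p under 0.05. Klk5 stood at -0.07 ± 0.34, Klk7 at 0.01 ± 0.31 and Klk6 at 0.35 ± 0.38. Klk10 was the member with the low unadjusted p, at 1.12 ± 0.46 (adjusted p = 1.0), and Klk13 stood at 0.67 ± 0.66. An interval of -0.74 to 0.59 for Klk5 does not show equal levels, and neither does the lack of calls over all genes. Summed over the tables, GZ21T lesions stood at 2.94 over unexposed skin for Klk6, 3.19 for Klk13, 1.77 for Klk10, 1.17 for Klk7 and 1.03 for Klk5.

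Along the cluster, some neighbouring genes differed in value and others were alike, and no difference between neighbours was tested. From the Klk14 end, the lesional values over unexposed skin were 5.59 for Klk14 and 4.37 for Klk13 and then -0.86 for Klk11, which is followed by Klk10 at 2.88 in the authors' deposited table. Next come Klk9 at 1.20 and Klk8 at 0.89. Klk12, between Klk13 and Klk11, stood at 5.10 ± 1.88 in the authors' deposited table (adjusted p = 0.04), with an error larger than that of any member, and was not called with the null spread estimated from all genes (adjusted p = 0.96). The Klk5 end held Klk7 at 0.40 and Klk5 at -0.11 on either side of Klk6 at 2.52 in the authors' deposited table. Of 17 other kallikrein genes listed, 8 had a fold change in the tables and 2 were tested in lesional over unexposed skin, of which Klk12 was called higher.

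**Figure D3:**
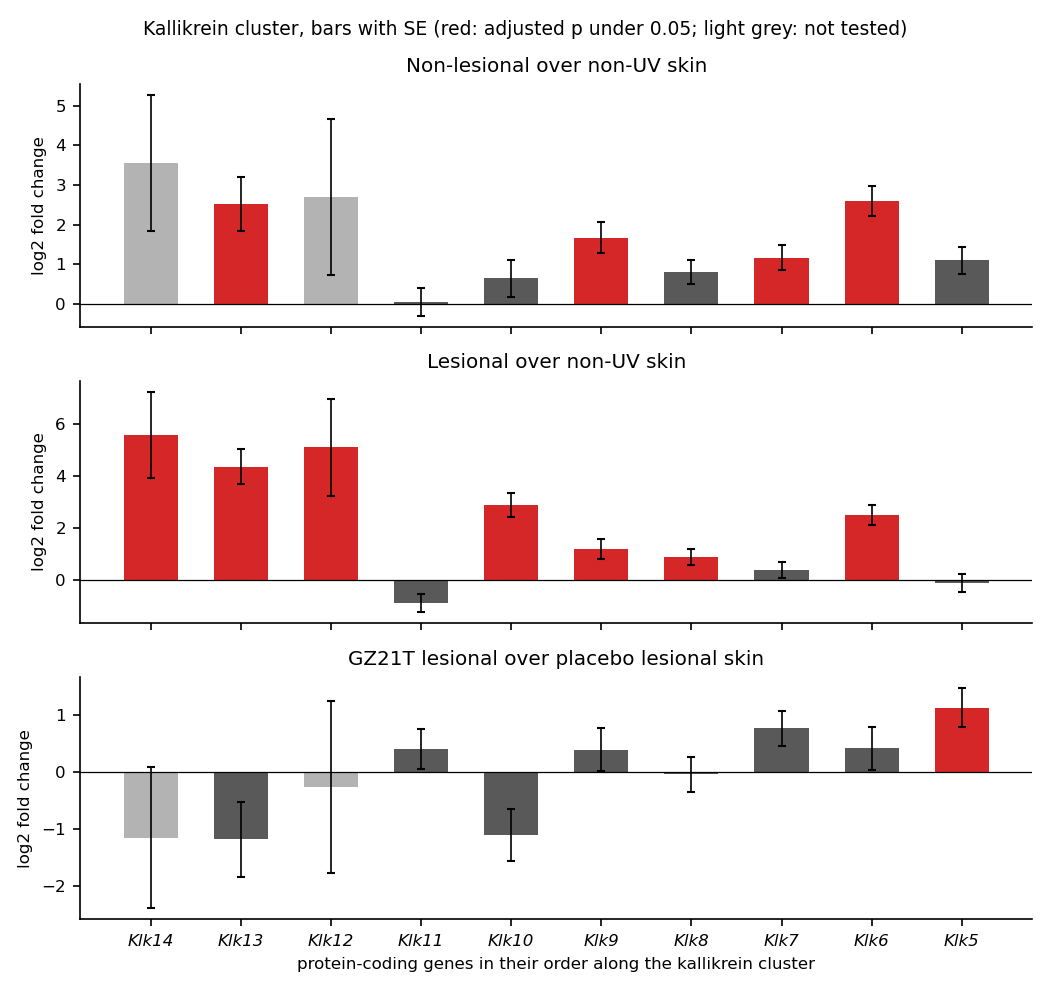
Log2 fold change (y axis, bars with SE) of the 10 coding genes of the cluster in their order along the chromosome, in 3 comparisons with separate scales; red marks an adjusted p under 0.05 and light grey a gene not tested. Klk6, at 2.52 in lesions, stands between Klk7 at 0.40 and Klk5 at -0.11, and Klk11, at -0.86, beside Klk10 at 2.88. Closer in value are the neighbours Klk14 at 5.59 and Klk13 at 4.37, and Klk9 at 1.20 and Klk8 at 0.89.

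Among other protease inhibitors, some changed in lesions. Of 8 genes listed, 6 were tested in lesions over unexposed skin, with 2 called higher and 1 lower. Slpi, an inhibitor of leukocyte elastase that also blocks KLK7 in humans, rose by 2.97 ± 0.82 in the authors' deposited table (adjusted p = 0.0043). Spink12, a Kazal-type relative of Spink5, rose by 5.16 ± 1.76 in the authors' deposited table (adjusted p = 0.025). Serpina12, which encodes vaspin, an inhibitor of KLK7 in humans, fell by 1.29 ± 0.38 in the authors' deposited table (adjusted p = 0.009). Serpina12 also fell by 1.71 ± 0.38 in lesions against perilesional skin by the derived contrast (adjusted p = 0.0038). With the null spread estimated from all genes none of these 3 calls in lesions over unexposed skin held (adjusted p of 0.90, 0.94 and 0.93), nor did that of Serpina12 against perilesional skin (0.093). Under GZ21T Serpina12 rose by 1.84 ± 0.38 in the authors' deposited table (adjusted p = 0.0024), as 1 called gene of 4 tested. That call too ended with the null spread estimated from all genes (adjusted p = 0.98, over all alternatives from 0.0013 to 0.98). In non-lesional over unexposed skin 0 of 5 were called by the DESeq2 Wald test, and 0 had an unadjusted p under 0.05. Spink12 was not among those 5, as it has no adjusted p there, and stood at 4.38 ± 1.78 in the authors' deposited table (unadjusted p = 0.014). Spink6 has no fold change in the tables.

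Activating and neighbouring proteases formed the next list. Of 9 genes listed, 6 were tested and 0 were called by the DESeq2 Wald test in lesions over unexposed skin, with 1 at an unadjusted p under 0.05. St14, which encodes matriptase, an activator of kallikrein precursors, stood at 0.74 ± 0.32 in the authors' deposited table (adjusted p = 0.094). Prss8, which encodes prostasin, stood at -0.24 ± 0.30 (adjusted p = 0.62) there in the authors' deposited table. Under GZ21T 1 of 6 was called, the filaggrin-processing caspase Casp14, which rose by 1.05 ± 0.32 in the authors' deposited table (adjusted p = 0.041). Its call ended, like that of Klk5, when every gene with a p-value entered the adjustment (adjusted p = 0.065) and with the null spread estimated from all genes (0.98), over all alternatives from 0.029 to 0.98.

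Of the substrates and receptors, genes of the corneodesmosome were among those called. In non-lesional over unexposed skin 3 of 9 tested genes were called, all higher. Dsc1 rose by 1.61 ± 0.28 (adjusted p = 4.5e-06), Cdsn, the gene of corneodesmosin, by 1.32 ± 0.30 (adjusted p = 0.0028) and the desmoglein gene Dsg1b by 1.01 ± 0.29 in the authors' deposited table (adjusted p = 0.038). In lesions over unexposed skin 3 of 10 were higher and 3 lower. Dsg1b rose by 1.28 ± 0.29 (adjusted p = 0.00039) while Dsg1a fell by 1.05 ± 0.27 in the authors' deposited table (adjusted p = 0.0023). Dsc1 rose by 1.01 ± 0.28 in the authors' deposited table (adjusted p = 0.0042), and Flg2, a filaggrin-family gene, fell by 2.92 ± 0.58 (adjusted p = 3.6e-05). Cdsn stood at 0.55 ± 0.31 in lesions (authors' deposited table, adjusted p = 0.2). Reads shared between the near-identical Dsg1 genes may be split in ways that leave each uncertain. The receptor gene F2rl1 fell by 0.94 ± 0.27 in the authors' deposited table (adjusted p = 0.0061), and Tslp rose by 4.71 ± 0.90 (adjusted p = 1.8e-05). Against perilesional skin Tslp was the called gene of 9 tested, 16.1-fold higher by the derived contrast (SE of 0.88 on the log2 scale, adjusted p = 0.0036). With the null spread estimated from all genes the 6 calls of this list in lesions over unexposed skin ended, with adjusted p from 0.69 for Tslp to 0.92 for F2rl1, as did that of Tslp against perilesional skin (0.093) and that of Dsg1b in non-lesional skin (0.11).

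Under GZ21T 2 of 9 of these genes were higher and 1 lower. Dsg1a rose by 1.06 ± 0.27 in the authors' deposited table (adjusted p = 0.016), a value near that of Klk5. Tslp fell by 3.95 ± 0.89 in the authors' deposited table (adjusted p = 0.0055), while F2rl1 stood at 0.12 ± 0.28 (adjusted p = 0.86). With the null spread estimated from all genes no gene was called under GZ21T, and the adjusted p of Tslp and of Dsg1a became 0.98, from lowest values over the alternatives of 0.005 for Tslp and 0.01 for Dsg1a.

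**Figure D4:**
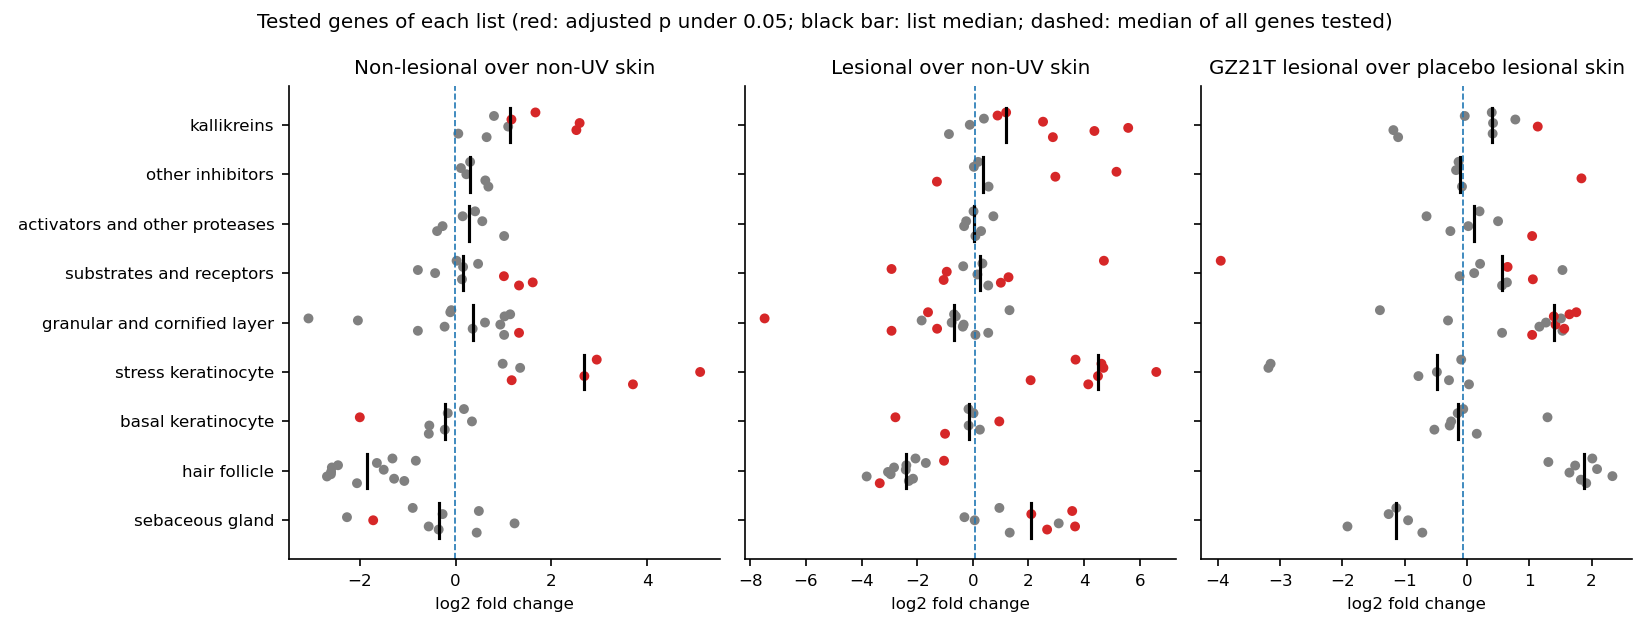
Log2 fold change (x axis, own scale in each panel) of every tested gene of 9 lists in 3 comparisons; red marks an adjusted p under 0.05, black bars are list medians and the dashed line the median of all genes tested. In lesions the kallikreins spread from -0.86 to 5.59, with stress keratinocyte genes at a median of 4.50 and granular and cornified genes at -0.68.

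Markers of the layers and structures that hold these genes moved as well. Granular and cornified markers had a median of 0.36 in non-lesional over unexposed skin, with 1 of 13 higher, and of -0.68 in lesions over unexposed skin, with 4 of 13 lower. Under GZ21T their median was 1.40, with 6 of 13 higher and none lower. Stress keratinocyte genes had 5 of 7 higher in non-lesional and 7 of 7 higher in lesional over unexposed skin, with medians of 2.69 and 4.50, and 0 of 7 called under GZ21T by the DESeq2 Wald test, with 2 at an unadjusted p under 0.05. Hair follicle genes had medians of -1.85 and -2.40 in the same comparisons with unexposed skin, with 0 of 12 called in the first (3 at an unadjusted p under 0.05) and Dsg4 and Msx2 called lower in the second. Sebaceous genes had medians of -0.35 and 2.10, with Plin2 called lower in the first and 4 of 9 called higher in the second. Basal keratinocyte genes had medians of -0.22 and -0.15, and members went both ways. Krt15 fell by 2.00 ± 0.46 in non-lesional skin in the authors' deposited table (adjusted p = 0.003), and in lesions Krt14 was called higher and Krt15 and Col17a1 lower. Muscle genes had medians of 1.37 and 1.59 with none of 5 called by the DESeq2 Wald test and 0 at an unadjusted p under 0.05, and fibroblast genes of -0.87 and 0.83 with none of 6 called and 0 and 1 at that p. Of 5 tested leukocyte genes, 1 was called higher and 1 lower in each of these comparisons, with Cd79a listed at 0 in lesional over non-UV skin, and of 3 tested melanocyte genes none was called and 0 had an unadjusted p under 0.05. Under GZ21T the medians were 1.87 for 8 tested hair follicle genes and -1.13 for 5 tested sebaceous genes, with 0 called in either and 1 in each at an unadjusted p under 0.05. With the null spread estimated from all genes, the calls on stress keratinocyte genes held for 5 of 5 in non-lesional and 3 of 7 in lesional over unexposed skin. Under that setting the calls on granular and cornified, basal, hair follicle, sebaceous and leukocyte genes in lesions ended, as did those on marker genes in perilesional over non-lesional skin, in lesional over perilesional skin and under GZ21T. The part of these shifts in the kallikrein values was not tested.

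Among 10899 genes tested in all 4 deposited tables, likeness to a member was measured as the root mean square difference of the 4 log2 fold changes. The 5 genes nearest Klk5 were Serpinb3b at 0.10, Slc26a9 and Casp14 at 0.12, Cacna1e at 0.17 and Tmem229b at 0.18. For Klk7 they were Calm4 at 0.04, H2-M2 and Igfbp6 at 0.13, Ly6g6c at 0.14 and Calml3 at 0.15. Nearest Klk6 were Gsdmc at 0.18, Myh1 at 0.19, Cox6a2 at 0.20, Actn2 at 0.21 and Oas3 at 0.24. Nearest Spink5 were Ndrg3 at 0.04, U2af1l4, Pld2 and Afap1 at 0.05 and Med24 at 0.06. Among the members, Klk7 was 0.32 from Klk5, which ranks it 41 among all genes, followed by Spink5 at 0.66, Klk11 at 0.75, Klk9 at 0.82, Klk8 at 0.85, Klk6 at 1.57, Klk10 at 2.02 and Klk13 at 2.64. The likeness rests on 5 group means and 4 shared contrasts, takes no account of the SE of either gene and carries no test.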

How the data were processed

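RNA from 15 skin samples, isolated by RNeasy kit, was made into TruSeq Stranded Total RNA libraries, per the labels' protocols. Trim Galore, the build GRCm38 (mm10) and DESeq2 are named in the submitters' processing notes. Which aligner, counter, annotation, tool versions and model were used is not given in the sources. The authors deposited 4 tables, each with a log2 fold change, a Wald statistic (a score, the fold change over its SE), a p-value and a Benjamini-Hochberg adjusted p-value per gene, per the file headers. They hold no counts, so edgeR fits and fits without a replicate could not be made, and the number of unused per-library columns is 0. Date-like symbols were dropped, 27 from the GZ21T table and 25 from each of the other 3, which left the same 24027 in all. Recomputed normal p-values differed from the deposited ones by at most 9.9e-13 in ln p. Genes without a deposited adjusted p count as not tested.

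The header of 1 table (lesional against back) departs from its name (perilesional against lesional). Genes taken as without reads in non-lesional and non-UV skin number 1423, of which 704 have a positive and 0 a negative value in it. For the 1195 without reads in perilesional and non-lesional skin these are 474 and 271. The header was followed, with back taken as the non-UV group by elimination. Signs were reversed in the placebo over GZ21T table, so that values read GZ21T over placebo.

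Lesional over perilesional skin was derived by subtracting both intermediate steps from the lesional over non-UV value, and its variance by combining the squared SEs of the same 3 tables (lesional minus non-lesional plus perilesional). GZ21T lesional over non-lesional skin was derived likewise. These variances are exact for 1 fit with the group alone as model, which the labels do not state. For other pairs of groups the smallest and largest SE that keep every group's variance at 0 or above were computed, and no test was made. The arithmetic of the derivation was checked on simulated group means that were independent and followed that same model. This check cannot show whether the model, or independence between sites, holds for these libraries. Analyses used Python 3.11.15, NumPy 2.4.6, SciPy 1.17.1, pandas 2.3.3 and Matplotlib 3.10.9. Gene positions come from GENCODE release M21 on GRCm38, and start regions from RefSeq on GRCm38.p6, both of the C57BL/6J reference and not of SKH1. All 10 members matched GENCODE and the 9 kallikreins matched RefSeq start regions.

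The members and gene lists were chosen with earlier results of these data known. By rule, the named genes are the 10 members, the called genes of the pathway lists (up to 8 a list), F2rl1, St14, Prss8, Cdsn and Dsg1a, and the 5 genes most like each of Klk5, Klk6, Klk7 and Spink5. Spink6 and 2310002F09Rik are named outside this rule. Alternatives were centring on the median, adjustment over every gene with a p-value or over genes tested in all 4 tables, a null spread estimated from all genes, the largest deposited SE for derived contrasts, a threshold of 0.1 and, for lesional over perilesional skin, adjustment over genes tested in 2 of its 3 tables; the last pair was chosen after seeing the data. Some genes stand in more than 1 list, and Flg, A2ml1 and Adgre1 were not analysed here. The values of 1 called gene of the substrate list are not reported here.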

Additional observations from a re-analysis of the deposited data

How the results depend on the processing

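Of 310 member values under alternatives, 295 kept their direction and side of the threshold. Klk8 under GZ21T turned to 0.022 and Spink5 in lesional over perilesional skin to -0.018 when fold changes were centred, both within their errors of 0. With a null spread estimated from all genes, the members called went from 4 to 2 in non-lesional over non-UV skin, from 6 to 0 in lesional over non-UV skin and from 1 to 0 under GZ21T. Over all genes that setting gave 127, 14, 0, 2 and 1 calls in non-lesional over non-UV, lesional over non-UV, GZ21T over placebo lesional, perilesional over non-lesional and lesional over perilesional skin. A spread taken from all genes cannot tell a wide null from many real differences, and the cause was not tested. Adjusted over every gene with a p-value, GZ21T over placebo lesional skin gave 209 calls and 0 members. With the largest deposited SE, lesional over perilesional skin gave 62 calls. A threshold of 0.1, chosen after seeing the data, gave 30, 1092 and 161 calls in perilesional over non-lesional, GZ21T over placebo lesional and lesional over perilesional skin, against 17, 393 and 96. Centred on the median, the split in lesional over perilesional skin went from 58 higher and 38 lower to 43 and 49. No paired analysis was possible because the tables hold no values per library, although the placebo libraries carry the same numbers 1 to 3 at every site. For the same reason no replicate could be left out, and edgeR was not run. Depth is unknown, so only the SE shows the precision.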
